A study of Mus musculus with 11 samples.

Results

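Axon guidance genes encode the cues and the cell surface receptors that steer growing axons and migrating neurons. The data described here are read counts at the promoters of 66 such genes, of 21881 promoter windows in all, from chromatin immunoprecipitation (ChIP) of ST18, a DNA-binding zinc finger protein related to MYT1. The 66 genes were taken by name: every window of an EphA or EphB receptor, ephrin-A, ephrin-B, semaphorin, plexin, neuropilin, Robo, Slit or Unc5 gene, with Dcc and Ntn1. They comprise 32 ligand genes and 34 receptor genes. The rule used gene names and not counts, but it was set with earlier results of these data known.

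The mouse series labels 2 ChIP libraries made with an antibody to an HA tag, for ST18, and 1 library of input genomic DNA, all from a source called TN that the labels do not spell out. These samples carry a label for ChIP done in vitro and also the protocol text of the electroporation experiment, so how the cells were grown is not settled here. The sample titled and described as input has an HA ChIP molecule label too. The 8 RNA libraries of cortical cells electroporated at E12.5 and sorted for GFP at E16.5, from ST18 knockdown and control brains, were not analysed here. The labelled cell type is brain cell, which promoter read counts of ChIP and input cannot check.

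Ephrins bind Eph receptor tyrosine kinases and mostly repel growth cones, and both partners can signal into the cell that carries them. Semaphorins act through plexins, with neuropilins as co-receptors of the secreted class. Slits repel axons through Robo receptors, and netrin-1 attracts them through Dcc and repels them through Unc5 receptors. In the developing cortex these systems guide corticofugal and callosal axons and the migration of neurons.

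The deposited table has 1 ST18 column, of 438960 reads, and 1 input column, of 160443 reads. It does not say whether the ST18 column holds either or both ChIP libraries, so no value below has a replicate. All windows were 1000 bp long, so that reads per window can be compared between genes. Over all windows the median was 20 ST18 reads and 7 input reads. The member windows held 10 to 50 ST18 reads, with a median of 24, and 2 to 23 input reads, with a median of 8. Each window is given below by its 2 read counts, by the log2 enrichment in the authors' table, and by its fold, which is its ST18 to input ratio divided by the ratio of all promoters together. Exact 95% (Clopper-Pearson) intervals of the fold cover counting error only. At the 32 reads of a typical member, the interval cleared 1 only from a fold of 3.53 upwards or 0.414 downwards. Smaller changes were not detectable in a single window of that many reads, and these limits differ for windows with more or fewer reads.

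The promoters printed next are those of the members with the highest and the lowest fold, with Epha1 and Ephb1 added after their values were seen, because they are Eph receptor genes with opposite values whose promoters hold a MYT1 family motif. Sema3b also ranked among the 3 highest members and is only named. The sequences are from RefSeq, build GRCm38.p6, written 5′ to 3′ on the gene's strand, 300 bases each, of which the last 50 follow the transcript start. They may lie inside or beside the 1000 bp windows that were counted, whose positions the table does not give. Capitals mark CpG dinucleotides and the core motif AAGTTT, or AAACTT where it lies on the opposite strand. Sema3g lies at chr14:31217623-31217922 on the plus strand, Plxnb1 at chr9:109095186-109095485 on the plus strand, Epha1 at chr6:42373219-42373518 on the minus strand, Ephb1 at chr9:102354644-102354943 on the minus strand, Epha7 at chr4:28812881-28813180 on the plus strand (the first of its starts listed) and Plxnc1 at chr10:94944796-94945095 on the minus strand.
Sema3g: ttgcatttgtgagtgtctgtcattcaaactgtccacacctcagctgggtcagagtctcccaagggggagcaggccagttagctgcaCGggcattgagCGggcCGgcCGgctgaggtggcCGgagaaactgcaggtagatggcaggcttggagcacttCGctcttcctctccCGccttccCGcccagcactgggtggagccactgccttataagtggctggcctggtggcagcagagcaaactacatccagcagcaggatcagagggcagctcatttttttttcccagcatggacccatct
Plxnb1: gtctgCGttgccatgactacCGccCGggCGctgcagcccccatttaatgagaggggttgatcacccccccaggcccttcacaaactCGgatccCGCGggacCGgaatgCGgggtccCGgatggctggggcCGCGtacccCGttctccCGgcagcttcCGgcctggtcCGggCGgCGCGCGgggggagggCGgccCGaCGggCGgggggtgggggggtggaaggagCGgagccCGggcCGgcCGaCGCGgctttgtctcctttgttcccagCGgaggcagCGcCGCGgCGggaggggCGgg
Epha1: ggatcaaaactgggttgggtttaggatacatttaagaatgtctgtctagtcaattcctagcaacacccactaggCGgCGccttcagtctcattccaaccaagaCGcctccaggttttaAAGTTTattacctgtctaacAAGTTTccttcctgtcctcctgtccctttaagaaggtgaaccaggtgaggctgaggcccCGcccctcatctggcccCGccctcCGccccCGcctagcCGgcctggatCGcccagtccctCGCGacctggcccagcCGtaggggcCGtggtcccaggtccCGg
Ephb1: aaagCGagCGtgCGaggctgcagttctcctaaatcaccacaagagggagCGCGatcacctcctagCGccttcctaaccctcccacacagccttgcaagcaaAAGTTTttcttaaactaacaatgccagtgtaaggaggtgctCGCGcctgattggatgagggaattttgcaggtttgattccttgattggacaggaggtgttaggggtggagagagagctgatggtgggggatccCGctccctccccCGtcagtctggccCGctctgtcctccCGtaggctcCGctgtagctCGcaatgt
Epha7: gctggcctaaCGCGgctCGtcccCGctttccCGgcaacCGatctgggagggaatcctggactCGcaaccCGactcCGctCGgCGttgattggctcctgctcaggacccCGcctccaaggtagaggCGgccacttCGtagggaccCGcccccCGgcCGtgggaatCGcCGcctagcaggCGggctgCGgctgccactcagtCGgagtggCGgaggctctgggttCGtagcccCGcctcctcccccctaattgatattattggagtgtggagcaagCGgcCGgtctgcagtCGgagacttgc
Plxnc1: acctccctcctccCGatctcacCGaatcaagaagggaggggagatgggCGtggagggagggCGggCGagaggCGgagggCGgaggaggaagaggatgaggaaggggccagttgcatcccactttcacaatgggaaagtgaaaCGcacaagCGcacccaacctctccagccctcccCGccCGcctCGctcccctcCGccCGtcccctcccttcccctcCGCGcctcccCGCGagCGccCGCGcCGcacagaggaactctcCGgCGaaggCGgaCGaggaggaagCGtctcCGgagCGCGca

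The promoter of Sema3g has 8 CpG in these 300 bases, that of Plxnb1 has 36, those of Epha1 and Ephb1 have 14 each, that of Epha7 has 28 and that of Plxnc1 has 30. AAGTTT is the core of the motif bound by the MYT1 zinc finger family. It occurs at 2 places in the Epha1 promoter and at 1 in that of Ephb1, on either strand, and in none of the other 4 printed promoters.

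The first comparison asked which axon guidance promoters carried more ST18 reads than input reads, relative to all promoters. Sema3g, Plxnb1 and Sema3b had a fold whose interval lay above 1, and Plxnc1 and Epha4 had one that lay below 1. That is 3 of 66 members above, against 2.43% of all 21358 windows with reads, and 2 of 66 below, against 3.32% of all windows. Both member shares, 4.55% and 3.03%, were near those of all promoters, so these counts do not set the members apart. Each window's reads were also set against the overall ratio in a two-sided exact binomial test, adjusted by Benjamini-Hochberg over the 21358 windows. At an adjusted p of 0.05 it called 0 members higher, against 0.0375% of windows, and 0 members lower, against 0.00936%. The lowest adjusted p of a member was 0.528 (exact test), and 7 members had an unadjusted exact p of at most 0.05. The share of all windows at that unadjusted p was not counted, so the 7 cannot be read as an excess. This test compares the reads of the 2 columns, not conditions.

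**Figure D1:**
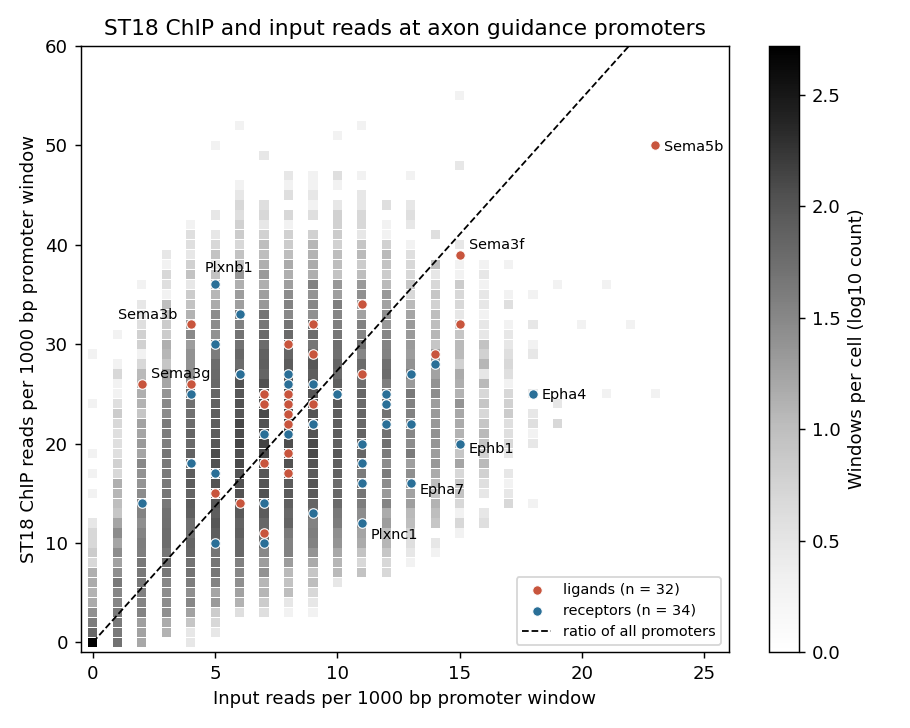
ST18 ChIP reads (vertical axis) against input reads (horizontal axis) in each 1000 bp promoter window. Grey squares are all windows, shaded by the log10 number of windows at each pair of counts, red points are ligand genes, blue points are receptor genes, and points with equal counts overlap. The dashed line is the ratio of all promoters, and windows above 60 ST18 or 26 input reads are not drawn. Sema3g (26 against 2 reads) lies above the line, and Epha4 (25 against 18) lies below it with almost the same number of ST18 reads.

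Among the secreted class 3 semaphorins, which act on neuropilins and plexins, Sema3g and Sema3b had an interval above 1 and the other 5 did not. Sema3g held 26 reads in the ST18 column against 2 in the input column, at log2 0.56 and 4.75-fold (exact 95% interval 1.19 to 41.3), and lay at the 98.6th percentile of all windows in log2 enrichment, with ST18 reads at the 77.3th percentile and input reads at the 9.42th. Sema3b, which lies near Sema3f in the genome, held 32 against 4 reads, at log2 0.53 and 2.92-fold (1.04 to 11.4). Both values rest on few input reads. Sema3d followed with 27 against 6 reads (log2 0.29, fold 1.65, 0.665 to 4.87). Sema3e, a ligand of plexin D1, held 24 against 7 reads, and Sema3c held 34 against 11. The repellent genes Sema3f and Sema3a were the lowest of the class, with 39 against 15 reads for Sema3f (log2 0.04) and 18 against 7 for Sema3a (log2 0.02). No class 3 window had an interval below 1.

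Together the 7 class 3 promoters held 200 ST18 and 52 input reads, a summed fold of 1.41 (1.03 to 1.95). They averaged 28.6 ST18 reads per window, 1.42 times the mean of all windows, and 7.43 input reads, 1.01 times that mean. Over all windows the spread was larger than counting error: the dispersion of the ST18 counts, which is 1 under counting error alone, was 1.33. Over the 66 members the dispersion was 1.16, and whether this exceeds 1 was not tested. Widened for the dispersion of all windows, the class 3 interval was 0.989 to 1.998 and included 1. Over class 3 windows with more than 5 input reads the summed fold was 1.25 (0.894 to 1.79), an interval that also included 1. That filter acts on the denominator of the fold and left out Sema3g and Sema3b, so this value does not test how stable the class 3 fold was.

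Class 4 to 7 semaphorins are membrane-bound, and together they stood at the ratio of all promoters, with 342 ST18 and 125 input reads over 13 windows (interval of the fold 0.812 to 1.24). Sema4d, a ligand of plexin B1, was the highest at 26 against 4 reads (log2 0.41, fold 2.38, 0.824 to 9.37). Sema4c and Sema4g were the lowest, with 24 against 12 reads (log2 −0.12) and 29 against 14 reads (log2 −0.11). Sema4a held 29 against 9 reads, Sema4f 15 against 5 and Sema4b 27 against 11. Sema5b, a semaphorin with thrombospondin repeats, had the most reads of all members in both columns, 50 against 23, yet its fold was 0.795 (0.476 to 1.36). Its class 5 partner Sema5a held 23 against 8 reads. The class 6 genes ranged from Sema6d at 18 against 4 reads and Sema6b at 32 against 9 reads (log2 0.22 and 0.21) to Sema6c at 19 against 8 (log2 −0.02), with Sema6a at 25 against 8. Sema7a, the lipid-anchored semaphorin, held 25 against 10 reads (log2 0.01). The ratio of class 3 to class 4 to 7 semaphorins was 1.41 (0.961 to 2.07), an interval that included 1.

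Of the ligands of Eph receptors, the lipid-anchored ephrin-A genes lay close together. Efna3 held 30 against 8 reads (log2 0.23), Efna1 24 against 7 (log2 0.16), Efna5 15 against 5 (log2 0.07), Efna4 22 against 8 (log2 0.05) and Efna2 24 against 9 (log2 0.04). Efna1, Efna3 and Efna4 follow each other in the genome with 0 other protein-coding genes between neighbours. The transmembrane ephrin-B genes spread more widely, from Efnb2 at 25 against 7 reads (log2 0.18) over Efnb3 at 17 against 8 (log2 −0.07) to Efnb1 at 11 against 7 (log2 −0.17). All 8 ephrin intervals included 1, and the summed fold of the ephrins was 1.04 (0.769 to 1.43).

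The Slit and netrin ligand genes were likewise near the ratio of all promoters. Slit2 held 24 against 8 reads (log2 0.10), Slit3 14 against 6 (log2 −0.02) and Slit1 32 against 15 (log2 −0.10). Ntn1, the gene of netrin-1, held 25 against 7 reads, a log2 enrichment of 0.18 and a fold of 1.31 (0.549 to 3.57).

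The Eph receptor promoters formed the group with the lowest ST18 to input ratio. Of these 14 windows 12 had a log2 enrichment below the median of all windows (0.04), and their median was −0.14. Epha4, a receptor for both ephrin classes that acts in growth cone repulsion, held 25 ST18 and 18 input reads, at log2 −0.38 and a fold of 0.508 (0.266 to 0.988). It lay at the 2.86th percentile of all windows in log2 enrichment, with ST18 reads at the 73.6th percentile and input reads at the 99.7th. Epha7 held 16 against 13 reads (log2 −0.37, fold 0.450, 0.203 to 1.02), and Ephb1 held 20 against 15 reads (log2 −0.36, fold 0.487, 0.237 to 1.02). Their intervals reached just past 1.

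The other EphB windows were Ephb6, which encodes a kinase-inactive receptor, at 16 against 11 reads (log2 −0.26), Ephb2 at 22 against 13 (log2 −0.22), Ephb3 at 27 against 13 (log2 −0.11) and Ephb4, the receptor of ephrin-B2 in veins, at 26 against 9 (log2 0.09). Among the remaining EphA windows, Epha6 held 18 against 11 reads and Epha10, another kinase-inactive member, 22 against 12. Epha8 had the fewest reads of all members, 10 against 5, and Epha5 and Epha2 had 22 against 9 each. Epha3 held 25 against 10 reads. Epha1 was the exception in this family, with 27 against 6 reads, a log2 enrichment of 0.29 and a fold of 1.65 (0.665 to 4.87).

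Summed over the 14 Eph receptor windows there were 298 ST18 and 154 input reads, a fold of 0.707 (0.5803 to 0.865), or 0.565 to 0.885 when widened for the spread between windows. The EphA genes stood at 0.735 (0.570 to 0.953) and the EphB genes at 0.665 (0.482 to 0.925). Relative to the mean of all windows, the input column differed more than the ST18 column. Eph receptor windows averaged 21.3 ST18 reads, 1.06 times the mean of all windows, but 11.0 input reads, 1.50 times that mean, and 12 of the 14 had more input reads than the median window. Set against the other 52 members, the Eph receptor ratio was 0.661 (0.526 to 0.833; 0.511 to 0.855 widened). Those 52 windows averaged 23.8 ST18 and 8.12 input reads, so in this comparison both columns differed.

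**Figure D2:**
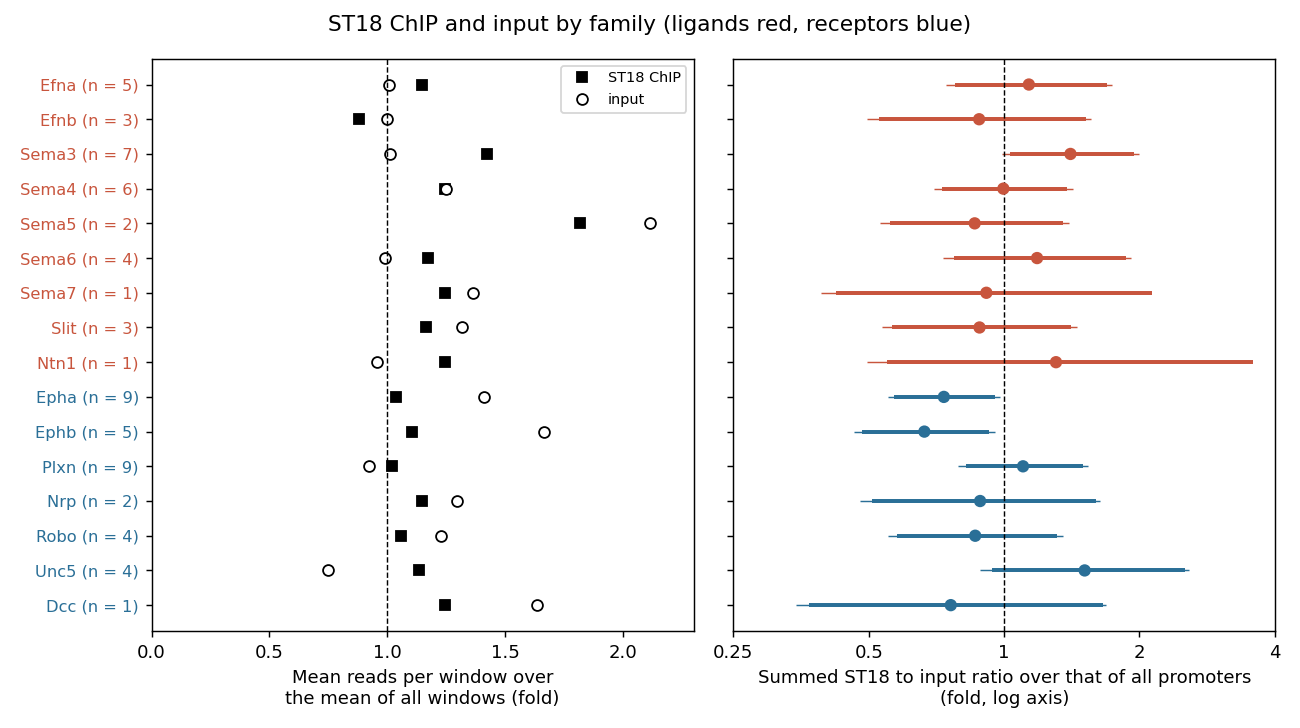
Left, mean reads per window of each family over the mean of all windows, for ST18 ChIP (squares) and input (circles). Right, summed ST18 to input ratio over that of all promoters on a log axis, with exact 95% intervals (thick lines) and intervals widened for the dispersion of all windows (thin lines). Epha and Ephb have input means of 1.41 and 1.66 times that of all windows and are the families whose thin line stays below 1, while the class 3 semaphorins (Sema3) have a raised ST18 mean of 1.42.

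Plexins, the signalling receptors of semaphorins, included members with high and with low values. Plxnb1, the receptor of Sema4d, had 36 ST18 reads and 5 input reads, at log2 0.54 and 2.63-fold (1.03 to 8.59). Plxnd1, the receptor of Sema3e in blood vessels and neurons, held 25 against 4 reads (log2 0.39, fold 2.28, 0.789 to 9.03), and Plxnb3 held 14 against 2 (log2 0.27, fold 2.56, 0.588 to 23.2). Plxnc1, the receptor of Sema7a, was at the other end with 12 against 11 reads, at log2 −0.37 and a fold of 0.399 (0.161 to 0.997), the lowest fold of all members. Plxnb2 held 24 against 12 reads (log2 −0.12). The class A plexins, which pair with neuropilins, stayed near the middle, with Plxna3 at 17 against 5 reads, Plxna2 at 21 against 7, Plxna1 at 21 against 8 and Plxna4 at 14 against 7. The 9 plexin windows together had a fold of 1.10 (0.821 to 1.50). The direction turned, with intervals that still included 1, to 0.966 without Plxnb1 and to 0.831 over windows with more than 5 input reads. That filter acts on the denominator of the fold. It left out Plxnb1, Plxnd1, Plxnb3 and Plxna3, the plexins with the highest log2 enrichment, so 0.831 does not check the direction. Class B plexins had 1.44 times the ratio of class A plexins, with an interval that included 1 (0.701 to 2.996).

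The co-receptor genes Nrp1 and Nrp2 held 26 against 8 reads (log2 0.15) and 20 against 11 reads (log2 −0.16). Their intervals, 0.522 to 3.04 for Nrp1 and 0.304 to 1.54 for Nrp2, overlapped. Of the Robo genes, Robo4, which is known from endothelial cells, held 27 against 8 reads (log2 0.17). Its direct neighbour in the genome Robo3, a receptor of commissural axons, held 13 against 9 (log2 −0.23). Robo1 had 17 against 5 reads (log2 0.12) and Robo2 28 against 14 (log2 −0.13). The Robo genes together stood at 0.863-fold (0.578 to 1.31).

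Among the netrin receptors, 3 of the 4 Unc5 genes had log2 values above the median of all windows. Unc5b held 30 against 5 reads (log2 0.42, fold 2.19, 0.842 to 7.24), Unc5c 33 against 6 (log2 0.42, fold 2.01, 0.832 to 5.87) and Unc5a 18 against 4 (log2 0.22). Unc5d differed from them with 10 against 7 reads (log2 −0.20, fold 0.522, 0.179 to 1.62). The summed fold of the Unc5 genes was 1.51 (0.941 to 2.53), and widened for the dispersion of all windows the interval was 0.884 to 2.59. This fold was 1.68 (1.04 to 2.81) under the authors' scale factor and 1.32 (0.751 to 2.47) without Unc5c, which had the most reads. The Unc5 windows averaged 0.750 times the input reads of all windows. Dcc, the receptor for attraction to netrin-1, held 25 against 12 reads (log2 −0.10, fold 0.761, 0.369 to 1.66).

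**Figure D3:**
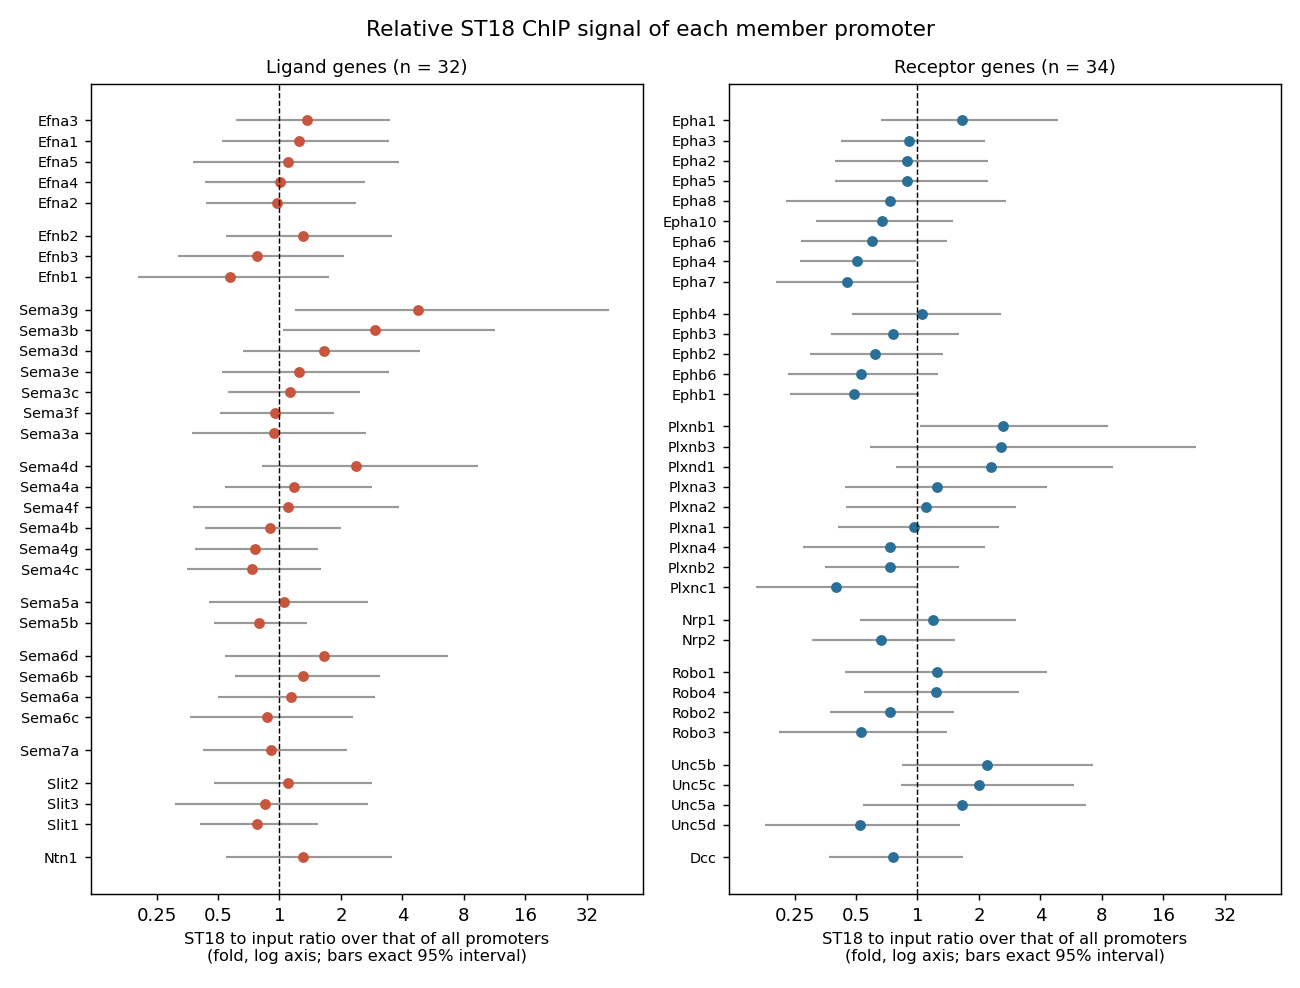
Fold of each of the 66 promoters on a log axis, with ligand genes on the left and receptor genes on the right, grouped by family. Points are the ST18 to input ratio over that of all promoters, and bars are exact 95% intervals from the read counts. The bars of Sema3g, Sema3b and Plxnb1 lie above 1, those of Epha4 and Plxnc1 lie below it, and the other 61 cross 1.

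Over all 66 members, 32 windows lay above the median log2 enrichment of all promoters and 33 below it. The summed fold was 0.973 (0.884 to 1.07), or 1.08 (0.981 to 1.19) under the authors' scale factor, and the SD of log2 enrichment was 0.22 among the members and 0.23 among all windows. A difference between these promoters as a set and all promoters was not detectable at this depth.

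The next comparison set ligands against receptors. Ligand promoters had a median log2 enrichment of 0.08, with 805 ST18 and 272 input reads in all, and receptor promoters a median of −0.04, with 729 and 304 reads. The ligand ratio was 1.23 times the receptor ratio (exact 95% interval 1.01 to 1.50). Widened for the spread between windows, this interval was 0.989 to 1.54 and included 1. Without the Eph receptors the ligand ratio was 1.03 times that of the remaining 20 receptor promoters (0.811 to 1.31), an interval that included 1. The Eph receptors were left out after their low ratio was seen, which by itself raises the receptor ratio, and the ephrins were kept. This value therefore does not show where the difference between ligands and receptors lies.

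Within each signalling system the same comparison gave the following. Ephrins had 1.47 times the ratio of Eph receptors (1.02 to 2.14; widened 0.978 to 2.21), with 1.55 for ephrin-A over EphA (0.970 to 2.49) and 1.32 for ephrin-B over EphB (0.712 to 2.51). Semaphorins had 1.07 times the ratio of plexins and neuropilins (0.773 to 1.46), and Slits 1.02 times that of Robo genes (0.549 to 1.91). Ntn1 had 1.05 times the ratio of Dcc and the Unc5 genes (0.395 to 3.12). The last 3 intervals are wide enough to hold a difference as large as that between ephrins and Eph receptors or, for the semaphorins, nearly as large.

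**Figure D4:**
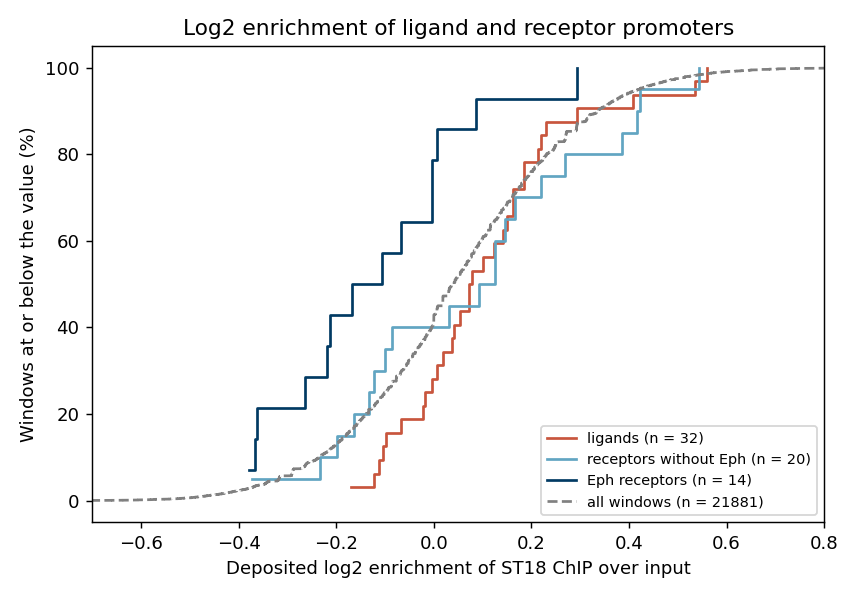
Share of windows at or below each deposited log2 enrichment of ST18 ChIP over input, for ligands (red), receptors other than Eph (light blue), Eph receptors (dark blue) and all windows (dashed grey). The Eph receptor curve lies to the left, with a median of −0.14, while ligands (0.08) and the other receptors (0.11) have medians near that of all windows (0.04).

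Families were compared with one another by setting each of the 16 against all other members. Without adjustment, the interval excluded 1 for the class 3 semaphorins (ratio 1.51, 1.09 to 2.13), the EphA genes (0.721, 0.547 to 0.955) and the EphB genes (0.659, 0.469 to 0.931). With intervals adjusted over the 16 families all 3 included 1, at 0.933 to 2.53 for the class 3 semaphorins, 0.478 to 1.10 for EphA and 0.399 to 1.11 for EphB. For the EphA and EphB genes together, the interval adjusted in the same way was 0.470 to 0.935. This joint group was not 1 of the 16 families, so the adjustment does not cover the choice to join them. Plexins and neuropilins had 1.49 times the ratio of the Eph receptors (1.07 to 2.08; widened 1.03 to 2.15).

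Some known ligand and receptor partners are set side by side here. They were chosen after the values were seen, so they do not show whether partners share a pattern. Sema4d (26 against 4 reads) and Plxnb1 (36 against 5) were both high in log2 enrichment, though the interval of Sema4d included 1. Sema7a (25 against 10) lay near the middle and Plxnc1 (12 against 11) low. Sema3e (24 against 7, log2 0.16) lay below its receptor Plxnd1 (25 against 4, log2 0.39), and both intervals included 1. Efnb2 (25 against 7) and Ephb4 (26 against 9) both lay near the ratio of all promoters.

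Promoter sequence was examined next. RefSeq promoters were matched for 56 of the 66 members and for 14683 of all 21881 windows. The matched members had a median of 21 CpG per 300 bases, the Eph receptors 19.5, the ephrins 28, the semaphorins 13 and the plexins and neuropilins 23, against 15 over all matched windows. Across 56 members the Spearman correlation of CpG number with log2 enrichment was −0.17, and with input reads 0.15. Across all matched windows these were 0.09 and 0.24. The windows share both libraries, and correlations this weak in sparse counts are given as a description only.

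All matched windows with 15 to 20 CpG averaged 8.33 input reads, and no CpG class averaged more. The Eph receptors averaged 11.0. The part of base composition in the Eph receptor values was not tested.

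**Figure D5:**
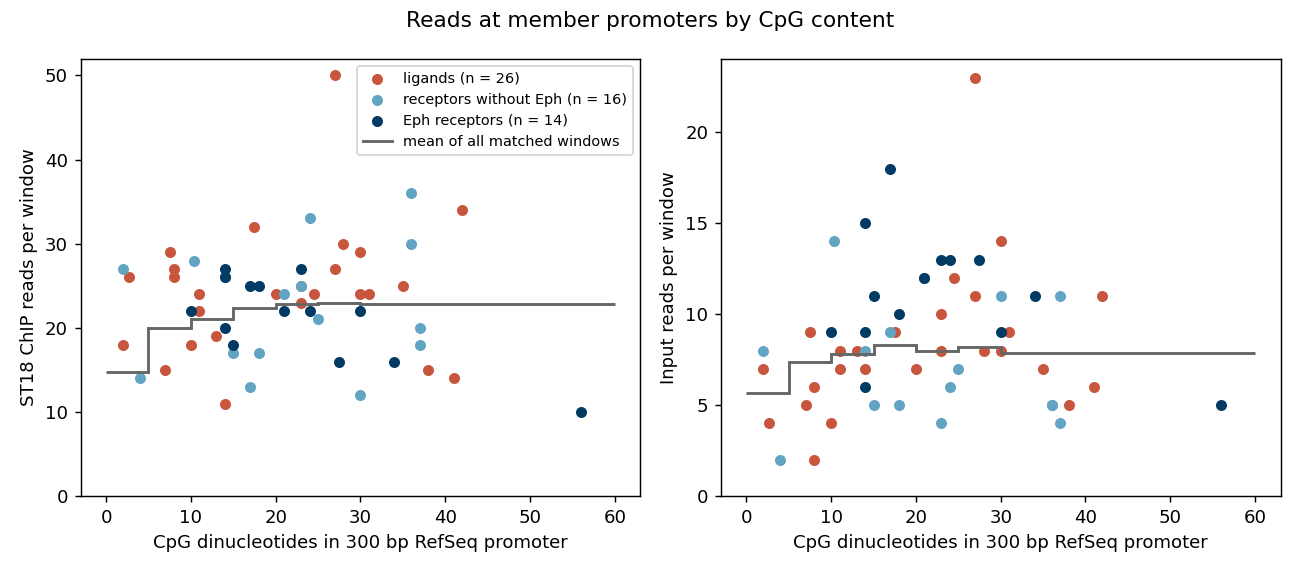
ST18 ChIP reads (left) and input reads (right) per window against the number of CpG dinucleotides in the 300 bp RefSeq promoter, for the 56 matched members (the mean over a gene's listed starts). The grey steps are the means of all matched windows in CpG classes, of which the last holds all promoters with 30 or more. Most Eph receptors (dark blue) lie above the grey line for input and near it for ST18.

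The motif AAGTTT or its reverse complement AAACTT, searched on both strands with overlaps allowed, occurred in 10 of the 72 promoters listed for members (13.9%), against 13.3% of the 17949 promoters of all matched windows. It occurred in 4 of 15 Eph receptor promoters, those of Epha1, Epha3, Ephb1 and Ephb4, and in 3 of 27 semaphorin promoters, those of Sema3a, Sema3d and Sema3e. The 10 member genes with the motif had a median log2 enrichment of 0.09 and the 46 without it 0.02, against 0.03 and 0.05 for all windows with and without it. The motif was present in the printed promoters of Epha1, with a fold above 1, and Ephb1, with a fold below 1. Both intervals included 1. As this pair was chosen for its opposite values, it does not show how the motif relates to enrichment.

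The other genes of these pathways were taken from a list chosen by function, of which 84 of 85 were in the table. Of these 84, 4 had an interval above 1, against 2.43% of all windows, and 3 had one below it, against 3.32%, so these counts too were near those of all promoters. None passed the adjusted exact test. Their median log2 enrichment was 0.05. Other guidance ligands had a summed fold of 1.32 over 17 genes (1.07 to 1.63). This interval covers counting error only and was neither widened for the dispersion nor adjusted over the classes of the list. The highest genes of this class by log2 enrichment held few input reads, as given below. Other receptors and co-receptors stood at 0.989-fold (0.814 to 1.21) over 18 genes, and cytoplasmic effectors at 0.956-fold (0.853 to 1.07) over 49 genes. Ranked by log2 enrichment, the highest of all 84 were the ligand genes Wnt5a (32 against 3 reads, log2 0.61) and Cxcl12 (37 against 5, log2 0.56) and the cytoplasmic adaptor gene Nck2, which links receptors to the actin cytoskeleton (26 against 2, log2 0.56). The fourth with an interval above 1 was Cntn2, which encodes a cell adhesion molecule of axons (27 against 3, log2 0.50). The lowest by log2 enrichment were the kinase gene Pak2 (12 against 15 reads, log2 −0.57), the actin regulator Evl (20 against 18, log2 −0.50) and Arhgef12, an exchange factor downstream of plexin B (13 against 13, log2 −0.45), and these 3 had the intervals below 1. By fold, which has no pseudocount, the adhesion gene L1cam was the highest at 5.48 (15 against 1 reads, 0.843 to 231), and Arhgef11 was next to Pak2 at the low end at 0.305 (5 against 6 reads, 0.0735 to 1.198). Both of these intervals included 1.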

How the data were processed

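Read counts per promoter window were deposited by the authors as whole numbers for 1 ST18 ChIP and 1 input column, and used as deposited. The submitters' processing notes name Bowtie, MACS2 2.0.10.20120913, TopHat2 2.0.8, HTSeq 0.5.4p1, edgeR and the build mm9 without roles. How duplicates were handled and windows placed is not stated by any source used here. The deposited log2 enrichment equals, within 1e-06 in all 21881 windows, the log2 of (0.4055 times ST18 reads plus 16) over (input reads plus 16), and the pseudocount pulls values towards 0.

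Folds were scaled to the totals of both columns. Exact intervals, the exact binomial test and ratios of sums (exact conditional intervals) were computed with scipy 1.17.1 in Python 3.11.15. The intervals of single windows and the binomial test were run on simulated counts that had counting error only. Summed folds and ratios of sums were not checked in this way. The 523 windows without reads were left out of tests. The libraries carry no stated molecular identifiers, so reads need not be independent molecules. The widened interval multiplies the counting variance of the log ratio by the dispersion. A replicated test could not be made with 1 ST18 column.

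The members and lists were chosen with earlier results of these data known. Genes named were those with an interval excluding 1, the 8 highest and 8 lowest members, the highest and lowest of each family, those with the most and fewest reads, all genes of families of 5 or fewer, and the 3 highest and 3 lowest of the other pathway genes; further members were named to account for all. Neighbouring genes were read from RefSeq (GRCm38.p6). The peak list was not used, as the window positions are not in the table.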

Additional observations from a re-analysis of the deposited data

How the results depend on the processing

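The counts of members with an interval above or below 1 (3 and 2) depended on the setting. They were 0 and 0 with 99% intervals, with windows of more than 5 input reads only, and with a deposited log2 of at least 0.58 either way. Below 1 they were 0 under the authors' scale factor and 4 by an unadjusted exact p of at most 0.05. Of all 21881 windows, 252 had a deposited log2 of at least 0.58. For the other settings the share of all windows was not counted, so these member counts cannot be set against all promoters. With the input filter the 0 above 1 was fixed beforehand, as Sema3g, Plxnb1 and Sema3b held 2, 5 and 4 input reads. Wherever it is used here, that filter acts on the denominator of the fold. Scaling without the 10 windows with the most reads moved neither count by more than 1.5 times. The summed fold of all members was 1.08 under the authors' scale factor, with an interval that still included 1 (0.981 to 1.19). The ligand to receptor ratio had an interval that included 1 without Eph receptors (1.03) and when widened for the dispersion (1.23). Both of these were added after seeing the data. It excluded 1 without ephrins, without class 4 to 7 semaphorins, with more than 5 input reads only and without the member with the most reads on each side. The input filter left out high members on both sides, such as Plxnb1 and Unc5b among receptors and Sema3g and Sema3b among ligands. The Eph receptor fold excluded 1 under every setting tried, from 0.707 to 0.786, whereas EphA and EphB taken singly each lost this under the authors' scale factor (0.815 and 0.738) and with more than 5 input reads only (0.818 and 0.740), and EphA also without Epha4 (0.789). The ephrin to Eph ratio included 1 without the member with the most reads on each side (1.35). Among the other families, the class 3 semaphorins lost an interval above 1 with more than 5 input reads only (1.25). Unc5 gained one under the authors' scale factor (1.68) and under no other setting tried. The authors' factor raises all folds alike and leaves ratios between members as they are. Depth limits all single windows. No paired analysis was possible because the ST18 column carries no replicate number.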
